A study of Mus musculus with 4 samples.

Results

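The 213 cells described here were C1q-high Lyve1-low macrophages of the embryonic mouse pancreas at E15.5. They were chosen from the control library, which held 941 barcodes of the 1558 in the series. Barcodes under 500 detected genes or over 10% mitochondrial UMIs (unique molecular identifiers, each counting 1 captured transcript) were dropped, which left 925. A kept cell was a member when C1qa, C1qb and C1qc together reached 6000 CPM (UMIs scaled to a total of 1000000 per cell), with fewer than 4 Lyve1 UMIs and fewer than 3 Fcgr4 UMIs. The members made up 23.0% of the kept cells (exact binomial interval 20.4 to 25.9%). These 5 genes chose the cells, so their levels are given only as a description.

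The study profiled single cells of the embryonic pancreas on a droplet platform, with and without the enzyme OGT, which attaches O-GlcNAc sugars to proteins. The control animals were OGT flox/flox without Cre, labelled WT, and their cells were sorted on what the design names E-cadherin GFP, where the extract protocol names GFP alone. How macrophages came into that sort was not tested. The knockout animals were PdxCre;OGT flox/flox;CAG GFP, so both genotypes carried the floxed allele, and the knockout was driven by Pdx-Cre, which is active in the pancreatic epithelial lineage. Knockout cells were sorted on the GFP of the lineage, and the effects of sort and genotype cannot be told apart. Each genotype had 2 samples, which were repeat sequencing runs of 1 library pooled in 1 table, and so nothing below has a replicate check. The intervals are at 95% and cover counting error only. How many embryos were pooled is not given in the sources used here.

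C1q is the recognition part of the classical complement pathway. It is assembled from A, B and C chains, which macrophages make themselves, and it tags dying cells and debris for uptake. Macrophages of the fetus are seeded from the yolk sac and later from fetal liver monocytes. LYVE1, a hyaluronan receptor, marks a class of resident macrophages that also carries the mannose receptor MRC1, the folate receptor FOLR2 and CD163, whereas CCR2 and LY6C mark monocytes and cells that recently derived from them.

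The C1q chains are encoded next to each other on mouse chromosome 4 (GRCm38), on the minus strand: C1qa at 136895917-136898803, C1qc at 136889804-136893065 and C1qb at 136880129-136886187. The RefSeq promoter table (GRCm38.p6) held 2 of the 3 genes and not C1qa. Both are shown because these genes define the cells, with GAGGAA in capitals, the core letters bound by PU.1 (encoded by Spi1, the master factor of macrophages), on either strand. Only bases upstream of the gene's start in both annotations are printed, 250 for C1qb (chr4:136886201-136886450, minus strand) and 99 for C1qc (chr4:136893066-136893164, minus strand).
C1qb: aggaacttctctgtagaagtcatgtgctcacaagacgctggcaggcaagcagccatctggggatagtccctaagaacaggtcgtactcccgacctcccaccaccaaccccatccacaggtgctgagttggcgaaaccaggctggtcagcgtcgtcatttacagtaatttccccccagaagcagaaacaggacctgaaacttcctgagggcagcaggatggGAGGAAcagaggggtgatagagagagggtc
C1qc: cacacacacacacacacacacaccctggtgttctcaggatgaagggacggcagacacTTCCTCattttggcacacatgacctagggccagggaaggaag
The match lay 30 bases upstream of the RefSeq start of C1qb, and 193 bases upstream of that of C1qc, on the opposite strand. Of 32851 promoter windows of 250 bases, 23.3% held these letters on either strand, so a match describes the window and shows no binding.

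By the values that chose them, the members had a median of 9788 CPM of C1q, with a lowest of 6034 and a highest of 22710. With the UMIs of all members summed and scaled in the same way, the 3 chains stood at 3057 CPM for C1qa, 3784 for C1qb and 3262 for C1qc. Of the members, 112 had no Lyve1 UMI, 53 had 1, 30 had 2 and 18 had 3. At the limits, 16 members had C1q between 6000 and 6500 CPM, and 15 cells that met the other limits lay between 5500 and 6000. Another 21 cells missed membership with exactly 4 Lyve1 UMIs, and 29 through 3 or more Fcgr4 UMIs. The member cells held a median of 9527 UMIs (3940 to 35562) and 2891 genes.

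The macrophage name was checked against genes that the rule did not use. All 20 genes of a pan-macrophage list were detected in the members, and 19 of them stood at 50 CPM or more. The receptor of the macrophage growth factor CSF1, Csf1r, stood at 1104 CPM (1061 to 1148) and had at least 1 UMI in every member. The F4/80 gene Adgre1 stood at 438 CPM, the lysosomal protein gene Cd68 at 368, the fractalkine receptor gene Cx3cr1 at 813 and Spi1 at 481. The samples' own label names pancreatic epithelial cells, whose defining adhesion gene Epcam stood at 29.8 CPM in the members and at 686 CPM in 83 Epcam-positive control cells (at least 5 Epcam UMIs, C1q under the limit, median depth 17119 UMIs). No member had more than 3 Epcam UMIs, and 156 had none.

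Transcripts of other cells were present, and those of acinar cells were not at low level. The acinar list of 19 genes summed to 4372 CPM in the members and 42000 in the Epcam-positive cells. In single members it ran from 2186 to 17530 CPM. The acinar enzyme gene Ctrb1 stood at 1514 CPM in the members, between 1289 and 1397 in the 3 other immune populations compared below, and at 14720 in the Epcam-positive cells. No empty droplets were analysed here, so the part of free RNA in such levels was not tested. For other genes, the level in the Epcam-positive cells is given below as the background. Of 12 erythroid genes, 4 were at 0 in the members, among them Alas2, Slc4a1 and Hbb-bh1, and the list summed to 75.7 CPM in the members, 89.3 in the Lyve1-positive and 42.8 in the Epcam-positive cells. Of 12 neutrophil genes, 4 were at 0 (Elane, Ngp, Camp, Ly6g), and that list summed to 45.4 CPM against 47.2 and 42.8. Of 10 mast cell and basophil genes, 7 were at 0. Both sexes were present, as 28 members carried 3 or more UMIs of Xist without any Y-linked one, 102 carried a Y-linked UMI with under 3 of Xist, and 83 could not be placed.

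The members were compared with 3 other populations of the same library. The C1q-high Lyve1-positive cells (152) met the same C1q and Fcgr4 limits with 4 or more Lyve1 UMIs and had a median of 10952 UMIs. The Fcgr4-positive cells (102) had at least 3 UMIs of Fcgr4, an activating Fc receptor of patrolling monocytes, and a median of 15342. The Ly6c2-positive cells (67) had C1q under 6000 CPM and at least 3 UMIs of the classical monocyte gene Ly6c2, with a median of 12918. They also met the members' Lyve1 and Fcgr4 limits. A gene was counted as higher or lower when its CPM differed at least 1.5-fold, among genes with 50 or more UMIs over both populations. That is a limit of size and not a test, and a gene near the floor of 50 UMIs can pass it through counting error alone.

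Of the markers proposed for these cells, Slc40a1 and Ms4a7 did not set them apart from their Lyve1-positive neighbours. Slc40a1 encodes ferroportin, the exporter that releases iron from macrophages, and lies on chromosome 1 (45908068-45926523, minus strand). It stood at 416 CPM (389 to 443) in the members and 441 in the Lyve1-positive cells, a ratio of 0.94 (0.86 to 1.03). Over single members it ranged from 0 to 3726 CPM with a median of 241. Ms4a7, a membrane protein gene of mature macrophages on chromosome 19 (11321039-11336146, minus strand), stood at 536 CPM (506 to 567) against 514, a ratio of 1.04 (0.958 to 1.136). It ranged from 0 to 2149 CPM in single members with a median of 459. Both were lower in the Fcgr4-positive cells (189 CPM for Slc40a1, 266 for Ms4a7) and far lower in the Ly6c2-positive cells (41.6 and 52.7). In the Epcam-positive cells, which should lack both, they stood at 57.3 and 56.7 CPM, so the levels in the Ly6c2-positive cells were not above this background.

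Against the Lyve1-positive cells, 359 of 7068 measured genes were higher in the members (5.08%) and 418 lower (5.91%), 11.0% in either direction. Among the higher genes were Ccr2, Cd74, H2-DMa and Tmem119, and among the lower ones the scavenger receptors Mrc1 and Stab1 and the folate receptor Folr2. The plot of the genes with the largest ratios gives their levels in each population.

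**Figure D1:**
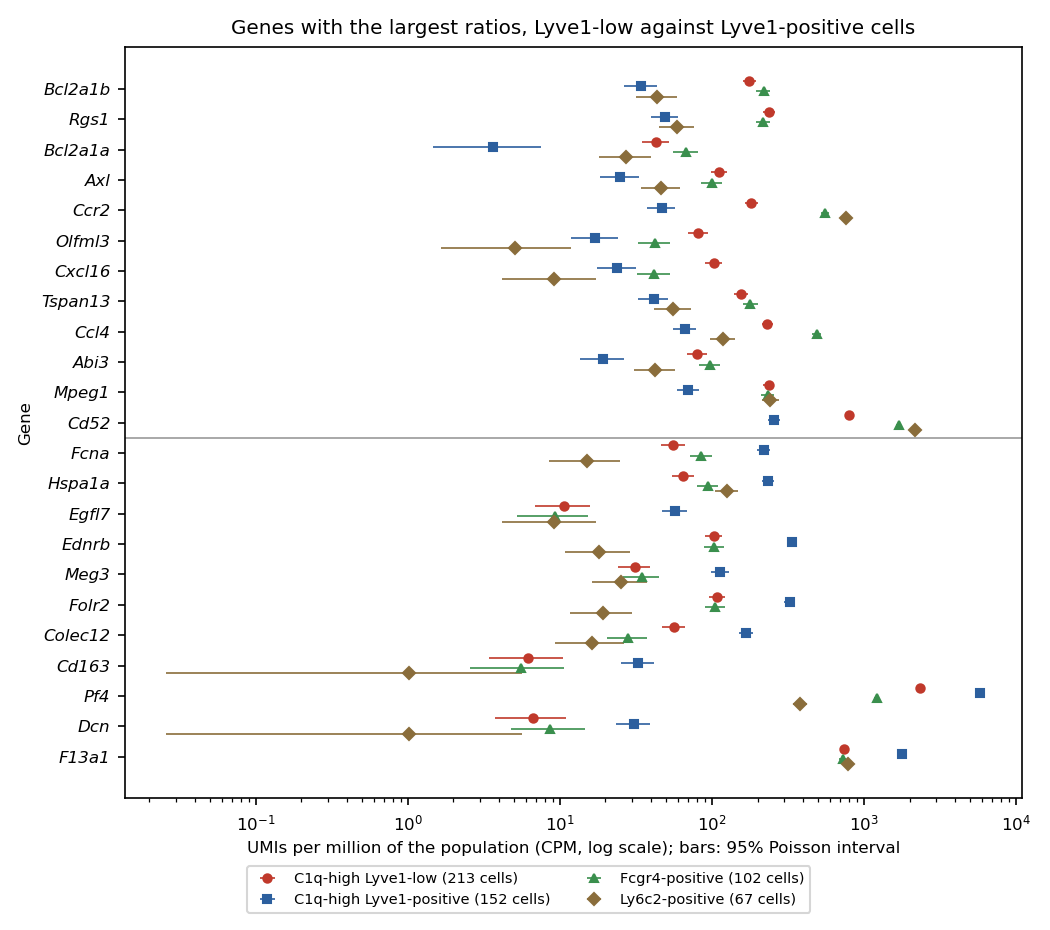
Levels of the genes with the largest ratios between C1q-high Lyve1-low and C1q-high Lyve1-positive cells, in CPM on a log axis, with Poisson intervals as bars. Genes above the line were higher in the Lyve1-low cells and genes under it lower, with Lyve1 itself left out, and markers show the 4 populations of the control library.

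Rgs1, a regulator of chemokine receptor signalling, was at 239 CPM (219 to 260) in the members and 49.3 in the Lyve1-positive cells, a ratio of 4.84 (3.88 to 6.08). It was found in 56.3% of members and 35.5% of Lyve1-positive cells, and at 5000 UMIs per cell in 45.1% and 17.8%. Bcl2a1b, a survival gene of the BCL2 family, was at 176 CPM against 34.3, a ratio of 5.14 (3.96 to 6.78). Bcl2a1a had 43.2 against 3.63 CPM, but 52.6% of its member UMIs came from 5 cells, and the Bcl2a1 copies on chromosome 9 are near-identical, so how reads were divided between them is uncertain. Both copies were at no lower level in the Fcgr4-positive cells (219 and 67.7 CPM).

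Ccr2, the receptor that brings monocytes out of the blood, was at 182 CPM (165 to 200) in the members against 46.7, a ratio of 3.90 (3.09 to 4.95). Its levels in the Fcgr4-positive (556 CPM) and Ly6c2-positive cells (763 CPM) were higher still. At 5000 UMIs per cell, 36.4% of members, 22.6% of Lyve1-positive and 20.7% of Epcam-positive cells held a Ccr2 UMI, so its share in the Lyve1-positive cells was close to the background. The monocyte list as a whole was not raised to that extent, with 2 of its 7 measured genes higher (Ccr2 and S100a4), none lower, and a median log2 ratio of 0.42 against -0.05 over all measured genes. Plac8, abundant in monocytes, was at 320 CPM against 217, with 71.7% of members and 74.4% of Epcam-positive cells holding a UMI at 5000 UMIs. Lyz2, the lysozyme gene, was at 2892 against 2684.

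Axl, a receptor that recognises dying cells through GAS6, was at 112 CPM (98.3 to 126) against 24.9, a ratio of 4.48 (3.28 to 6.24). Its partner Mertk was at 55.6 against 44.1, a ratio of 1.26 with an interval (0.95 to 1.68) that includes no difference. The ligand gene Gas6 went the other way, with 407 CPM in the members and 893 in the Lyve1-positive cells. The scavenger and phagocytic receptor list was therefore mixed, with 4 of 19 measured genes higher (Axl, Clec12a, Itgav, Clec4n) and 5 lower (Cd163, Colec12, Mrc1, Cd36, Stab1).

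Of the 14 measured genes of a microglia-type list, 3 were higher, among them Olfml3 and Tmem119, and Sparc was lower, with a median log2 ratio of 0.15. Tmem119, a membrane protein gene of microglia, was at 80.6 CPM (69.2 to 93.2) against 23.9. Olfml3 was at 81.4 CPM against 17.1. Other genes of that list lay within the 1.5-fold limit, with P2ry12 at 81.0 against 59.7 CPM, Trem2 at 420 against 363 and Fcrls at 855 against 897. Sall1, the factor that defines microglia, had no UMI in the members.

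Of 8 measured antigen presentation genes, Cd74 and H2-DMa were higher and none was lower. Cd74, the invariant chain, was at 155 CPM (139 to 172) against 59.7, with 29.6% of its UMIs in 5 members, and the peptide loader H2-DMa at 84.6 against 24.9. H2-Aa and H2-Ab1 were at 8.90 and 9.79 CPM, against 7.23 and 7.79 in the Epcam-positive cells, so no level above the background was seen. The cysteine protease Ctss, which trims the invariant chain, was at 1503 CPM (1453 to 1555) against 764.

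Among secreted factors, 5 of 19 measured genes were higher and 3 lower. Cxcl16, a membrane-bound chemokine, was at 103 CPM (90.4 to 117) against 23.9, and after thinning to 5000 UMIs it was in 29.3% of members, 8.90% of Lyve1-positive and none of the Epcam-positive cells. Ccl4 was at 232 CPM against 66.5, Ccl3 at 409 against 265, Cxcl10 at 43.2 against 12.5 and Tnf at 20.9 against 10.9. The 3 lower ones were Pf4, Vegfb and Ccl2 (204 against 337 CPM). The receptor list had 6 of 17 measured genes higher, among them the IL-10 receptor gene Il10ra (55.2 against 32.2 CPM), and 1 lower, Il4ra.

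Other genes with the largest ratios were Mpeg1, a pore-forming protein of phagosomes, at 236 CPM against 70.1, and Cd52, a small leukocyte surface protein, at 795 against 256. Abi3 was at 80.6 against 19.2 and Tspan13 at 156 against 41.5. Tspan13 was also at 154 CPM in the Epcam-positive cells. Of the transcription factors, 5 of 24 measured were higher, with Spic at 23.6 CPM against 6.23, and Mitf was lower. Spi1 was level (481 against 457 CPM). Complement genes outside C1q were split, with C3 (20.9 against 3.63 CPM), Itgam and Itgb2 higher, 2 lower, among them C2, and the other 5 of 10 between the limits.

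On the lower side stood the genes that accompany Lyve1. Of the 16 measured genes of a Lyve1-type resident macrophage list, 10 were lower and none higher, with a median log2 ratio of -1.01. Mrc1, the mannose receptor, was at 541 CPM (511 to 572) in the members against 1163, a ratio of 0.47 (0.43 to 0.50). In single members it ranged from 0 to 2891 CPM with a median of 462, and in single Lyve1-positive cells from 117 to 3367 with a median of 1151, so the populations overlapped widely. Pf4, a chemokine gene of platelets and resident macrophages, was at 2355 CPM (2292 to 2419) against 5817. Its median over single cells was 1911 CPM in the members and 5510 in the Lyve1-positive cells.

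F13a1, which encodes coagulation factor XIII A, was at 740 against 1791 CPM, and Folr2 at 109 (95.4 to 123) against 325. Fcna, a lectin of the complement system, was at 55.6 against 220, Ednrb, an endothelin receptor, at 103 against 339 and the scavenger collectin Colec12 at 56.1 against 169. Cd163, the haptoglobin-haemoglobin receptor, was low in both, with 6.23 CPM from 14 UMIs against 32.7 CPM. The endocytic adaptor Dab2 (948 against 1846 CPM), Stab1 (713 against 1252) and the recycling Fc receptor Fcgrt (669 against 1096) were also lower. Timd4, Maf, Selenop, Igf1 and Ninj1 of the same list lay between the limits. Timd4, a receptor for phosphatidylserine, was at 36.1 against 47.8 CPM.

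Some genes on the lower side rested on few cells. In the Lyve1-positive population, 5 cells gave 89.8% of the UMIs of the mesenchymal gene Dcn and 75.7% of those of the imprinted transcript Meg3. When Lyve1 and Fcgr4 were judged at 5000 UMIs per cell, both turned to the higher side, with log2 ratios of 1.21 and 1.30 in place of -2.20 and -1.86. All 4 measured mesenchyme genes (Dcn, Col1a1, Col3a1, Col1a2) were lower in the members, where the whole list summed to 62.3 CPM. Egfl7, at 10.7 against 57.1 CPM, was the only measured gene of the endothelial list. The stress gene Hspa1a was at 65.0 against 234 CPM, a log2 ratio of -1.85 that was -0.55, within the 1.5-fold limit, in Xist cells alone, and the other 6 measured heat shock genes lay between the limits.

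Rgs1, Mrc1 and Ccr2 differed the same way in cells of either sex. Within cells carrying Xist, Rgs1 was at 239 CPM in the members and 39.1 in the Lyve1-positive cells, and within cells carrying Y-linked UMIs at 246 and 45.3. Mrc1 was at 429 and 1261 in the former and at 537 and 1144 in the latter. Ccr2 was at 111 and 47.8 in the former and at 220 and 49.4 in the latter.

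Several genes that accompany Lyve1 were higher in cells with more Lyve1 UMIs, though not all of them at every step. C1q-high cells were divided by their Lyve1 UMIs into 112 cells with 0, 53 with 1, 48 with 2 to 3, 69 with 4 to 9 and 83 with 10 or more. Mrc1 stood at 409, 599, 759, 1107 and 1194 CPM along these steps. Pf4 stood at 1642, 2379, 3820, 5602 and 5935, and Folr2 at 73.4, 93.5, 198, 300 and 338. Past the limit, the intervals of Mrc1 and of Folr2 overlapped between the steps. Gas6 stood at 278, 505, 576, 924 and 876 CPM, and Fcna at 48.1, 68.3, 58.5, 186 and 238. In the members with 2 to 3 Lyve1 UMIs these genes lay between the cells with none and the Lyve1-positive cells. Lyve1 is a gene of the rule and at so few UMIs counting error puts cells on either side of the limit, so graded levels and a mixture of separate kinds of cell cannot be told apart.

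Genes on the other side were lower in cells with more Lyve1 UMIs, though not all of them at every step. Axl stood at 112, 160, 62.2, 30.8 and 21.7 CPM along the same steps, and Tmem119 at 84.8, 86.3, 65.8, 30.8 and 20.1. Ccr2 stood at 229, 178, 87.8, 46.9 and 46.6 CPM and Cxcl16 at 121, 106, 64.0, 36.6 and 16.9. Rgs1 showed no such order within the members (238, 216 and 263 CPM) and was lower past the limit (61.6 and 42.6). Csf1r (982 to 1133 CPM over the 5 steps) and Ms4a7 (477 to 660) showed no such slope. Median depth was 9176 to 10082 UMIs in the first 4 steps and 13332 in the last, and its part in these levels was not tested.

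**Figure D2:**
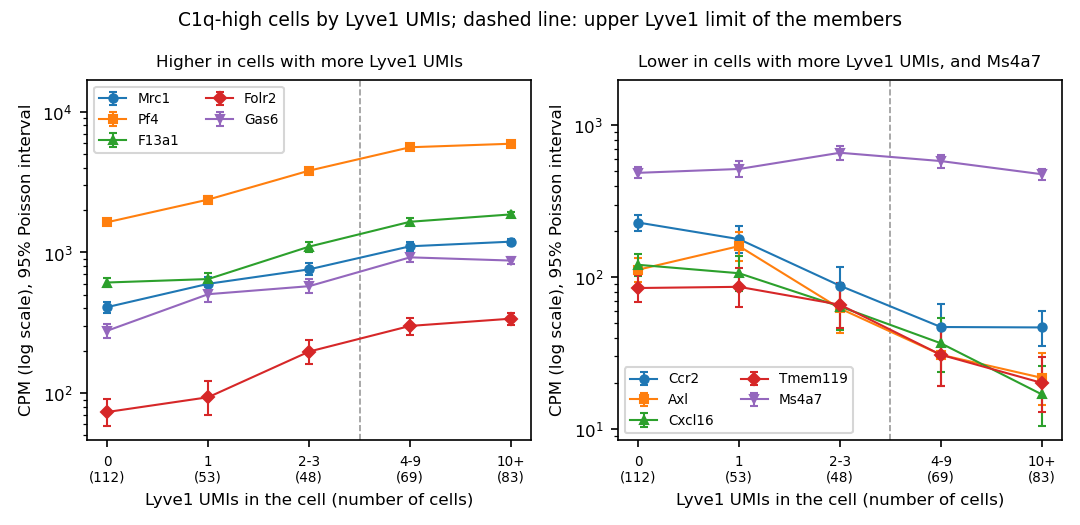
CPM (log axis, with Poisson intervals) in C1q-high cells grouped by Lyve1 UMIs, with the number of cells in brackets. Resident macrophage genes are on the left. Genes higher in the members than in the Lyve1-positive cells are on the right, with Ms4a7. Mrc1 went from 409 to 1194 CPM and Ccr2 from 229 to 46.6, while Ms4a7 stayed between 477 and 660.

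Levels also differed with C1q itself, which the rule used as well. Among control cells within the Lyve1 and Fcgr4 limits and under 5 Epcam UMIs, 87 members had 6000 to 9000 CPM of C1q, 75 had 9000 to 12000 and 51 had more. Across these, Ms4a7 stood at 306, 618 and 863 CPM, Slc40a1 at 225, 541 and 590, Csf1r at 951, 1057 and 1487 and Cx3cr1 at 715, 770 and 1080. Tmem119 (64.2, 78.9 and 116 CPM) and Olfml3 (54.9, 72.7 and 149) were also highest in the C1q-richest members, as was Axl (80.8, 99.0 and 194). Apoe, a lipid handling gene, stood at 14440, 19510 and 28120 CPM.

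Ccr2 went the other way, with 234, 180 and 80.7 CPM, and Plac8 stood at 397, 281 and 234. The 72 cells just under the C1q limit (3000 to 6000 CPM) had 437 CPM of Ccr2, 723 of Plac8 and 285 of Ms4a7. Cells with C1q under 1000 CPM had 756, 2048 and 52.2. Lyz2 changed mainly outside the limit, from 15750 CPM where C1q was at 1000 to 3000 to 3466 where it was at 3000 to 6000. Median depth lay between 8843 and 10141 UMIs in all 6 steps.

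**Figure D3:**
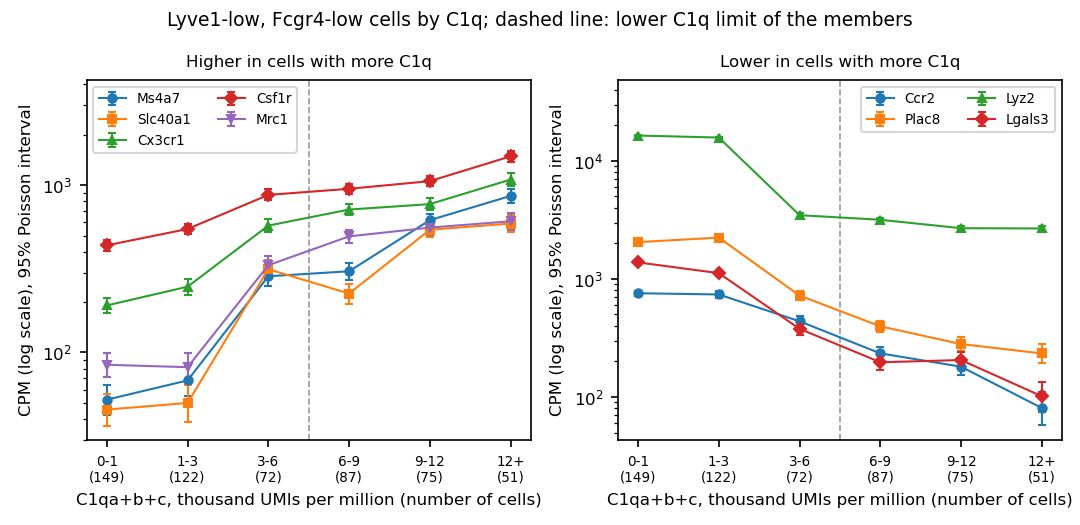
CPM (log axis, with Poisson intervals) of macrophage genes (left) and monocyte genes (right) in Lyve1-low, Fcgr4-low control cells grouped by C1q CPM, with the number of cells in brackets; the members lie right of the dashed line. Ms4a7 went from 306 to 863 CPM over the members' steps and Ccr2 from 234 to 80.7.

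The transcripts that varied most between single members were of several kinds. Over 184 members thinned to 5000 UMIs (29 were shallower), the 5 genes with the highest variance relative to their mean, of 3400 examined, were Malat1, Ftl1, Actb, Hist1h2ap and Hmox1, and Apoe, Fth1 and Lyz2 came next. Hmox1 encodes heme oxygenase, which breaks down heme and frees its iron, and lies on chromosome 8 (75093621-75100589, plus strand). It was at 734 CPM over all members, but 36.1% of its UMIs came from 5 cells. At 5000 UMIs, 49 members had none, 113 had 1 to 4, 10 had 5 to 9 and 12 had 10 or more, up to 78.

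The 12 Hmox1-rich members were rich in other iron genes as well, as the plot of single members shows. Ftl1, the ferritin light chain, was at 35590 CPM in them and 14980 in the other 172, and the heavy chain Fth1 at 18710 and 6175. Slc40a1 was at 1275 (1113 to 1454) and 340 CPM (314 to 367), and Slc48a1, which carries heme out of the lysosome, at 620 and 159. Biliverdin reductase B (Blvrb) was at 850 and 421 CPM, the antioxidant enzyme Prdx1 at 4042 and 1320 and the lysosomal protease Ctsd at 4100 and 1630. In UMIs per 5000, Fth1 ran from 45 to 155 with a median of 90 in the 12 cells, and from 10 to 111 with a median of 27.5 in the others, so the groups overlapped.

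Not every iron gene followed. The transferrin gene Trf was at 764 and 818 CPM, Hfe at 161 and 156, and the transferrin receptor Tfrc at 11.5 (2 UMIs) and 14.9. Cd163 and the globin genes Hba-a1 and Hba-a2 had no UMI in the 12 cells, which leaves an upper bound of 21.2 CPM for each, and the globins were at 6.69 and 8.24 CPM in the others. Hbb-bs was at 11.5 CPM (1.39 to 41.5) against 27.8 and Hbb-bt at 23.0 (6.26 to 58.8, from 4 UMIs) against 7.72, so no globin difference was detectable at this depth. Ccr2 was at 40.2 CPM in the 12 cells and 198 in the others. Their median depth was 13214 UMIs against 9936, and 7 of the 12 carried Y-linked UMIs while none was an Xist cell, and the part of these in the difference was not tested. These cells were split by Hmox1 after its spread had been seen.

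**Figure D4:**
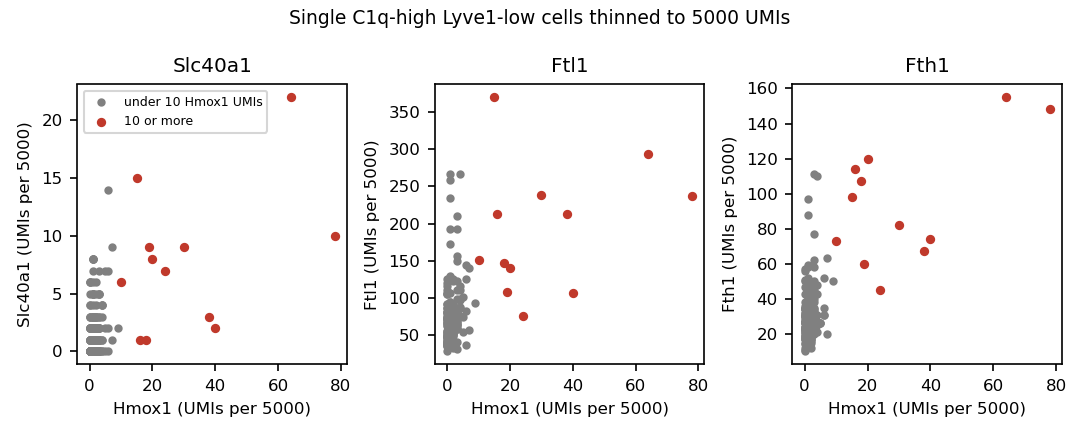
UMIs of Slc40a1, Ftl1 and Fth1 against UMIs of Hmox1 in 184 single members thinned to 5000 UMIs; red points are the 12 cells with 10 or more Hmox1 UMIs. Of the red points, Fth1 ran from 45 to 155 UMIs, against 10 to 111 in the grey points.

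The members were also divided by Ccr2. At 5000 UMIs, 67 members held a Ccr2 UMI and 117 held none. The former had 375 CPM of Mrc1, 1613 of Pf4, 472 of Plac8 and 145 of Ms4a4c, and the latter 654, 2853, 223 and 65.9. Of the 184 cells, 46 held UMIs of both Ccr2 and Mrc1, and 5 held neither. A Ccr2 UMI was also found in 20.7% of Epcam-positive cells, and the part of free RNA in this overlap was not tested.

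Mitosis transcripts were found in a like share of members and Lyve1-positive cells. With at least 3 UMIs of 28 mitosis genes at a depth of 5000, 139 of 184 members (75.5%, 68.7 to 81.6%) were counted as dividing, against 76.7% of the Lyve1-positive and 64.4% of the Fcgr4-positive cells. Of the Epcam-positive cells 76.8% and of the Ly6c2-positive cells 87.1% also met this limit. With 8 or more UMIs, a limit chosen after these shares were seen, the shares were 31.0% (24.4 to 38.2%) of members, 28.1% (21.0 to 36.1%) of Lyve1-positive, 16.8% (10.1 to 25.6%) of Fcgr4-positive and 59.7% (46.5 to 72.0%) of Ly6c2-positive cells. By summed level, 4 of 27 measured mitosis genes were lower in the members than in the Lyve1-positive cells, among them Ube2c (119 against 183 CPM), while Top2a was level (108 against 107), and the median log2 ratio was -0.32. That median was 0.13 in Xist cells alone and 0.05 without cells of 8 or more mitosis UMIs. Of 25 measured DNA replication genes, none passed 1.5-fold. Their median log2 ratio of 0.02 was 0.45 in Xist cells alone and -0.47 without cells of 8 or more mitosis UMIs.

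Against the Fcgr4-positive cells, 563 of 6767 measured genes were higher in the members (8.32%) and 460 lower (6.80%), 15.1% in either direction. The members had more of the resident and microglia-type genes and less of the monocyte and interferon genes. Class II genes were also lower by summed level, but most H2-Aa UMIs came from few of the Fcgr4-positive cells. C1q and Lyve1 set no limit for the Fcgr4-positive cells, whose C1q ran from 510 to 20390 CPM with a median of 4372. Of them, 29 met the members' C1q and Lyve1 limits. C1q was thus part of how the populations were separated, and its part in these differences was not tested. Of 14 measured microglia-type genes, 8 were higher and none lower, with Fcrls, an Fc receptor-like protein gene, at 855 CPM against 336. Of 14 measured Lyve1-type genes, 7 were higher and Fcna was lower. The growth factor gene Igf1 was at 240 CPM against 89.4, Vcam1, an adhesion molecule, at 53.4 against 12.4, the lysosomal tetraspanin Cd63 at 477 against 189 and the cholesterol exporter Abca1 at 186 against 74.5. Fscn1, which bundles actin, was at 113 against 26.1.

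All 10 measured monocyte genes were lower in the members, with a median log2 ratio of -2.16 against 0.03 over all genes. Plac8 was at 320 CPM against 1698, S100a6 at 74.3 against 395 and Ifitm6 at 16.9 against 133. Of 21 measured interferon response genes, 15 were lower and none higher, with Irf7 at 59.6 against 215 CPM and Isg15 at 55.6 against 186. Cd74 was at 155 against 782 CPM and H2-Aa at 8.90 against 119, where 5 cells gave 93.2% of its UMIs. Antigen presentation genes were lower for 7 of 11 measured by summed level. Over single cells, the whole list, which also holds B2m and H2-K1, had a median of 4631 CPM in the members. That median was 5124 CPM in the Fcgr4-positive cells, whose highest cell stood at 39340.

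Against the Ly6c2-positive cells, 1089 of 6313 measured genes were higher (17.3%) and 973 lower (15.4%), 32.7% in either direction. C1q was part of how these cells were separated, so the C1q levels are no result here. Of 13 measured microglia-type genes 12 were higher, of 14 Lyve1-type genes 13 and of 15 iron and heme genes 10. Maf, a transcription factor of resident macrophages, was at 609 CPM against 64.9, and Dab2 at 948 against 95.3. All 12 measured monocyte genes and all 28 mitosis genes were lower. S100a8, a gene of the neutrophil list, was at 22.7 CPM in the members, close to the 23.4 of Epcam-positive cells. It was at 2070 CPM in the Ly6c2-positive cells. Hp, haptoglobin, was at 37.4 against 749 CPM.

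**Figure D5:**
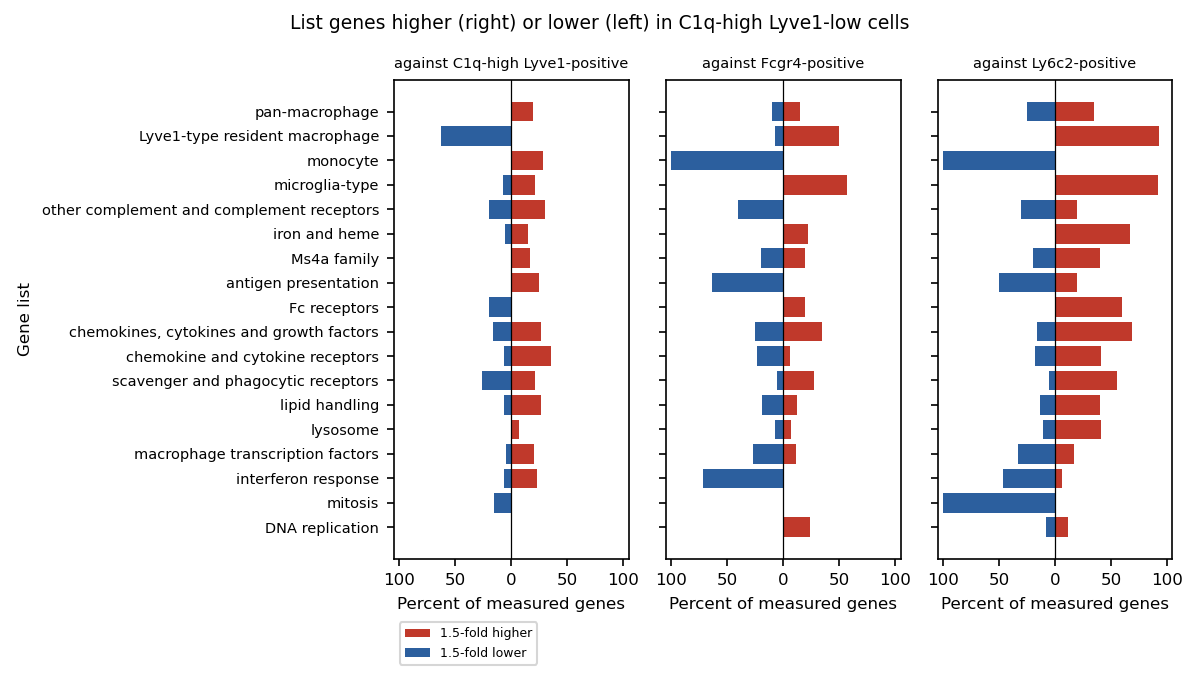
Percent of the measured genes of each list that were at least 1.5-fold higher (right, red) or lower (left, blue) in C1q-high Lyve1-low cells than in 3 other populations of the control library. Of the Lyve1-type genes, 10 of 16 were lower than in Lyve1-positive cells and 13 of 14 higher than in Ly6c2-positive cells.

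In the knockout library the same rule found 7 of 561 kept cells (1.25%, 0.50 to 2.55%), with 4 C1q-high Lyve1-positive, 13 Ly6c2-positive and no Fcgr4-positive cells. The 7 cells came from 1 library sorted on another signal, so the lower share cannot be told apart from the sort. Their summed level was 1152 CPM for Csf1r (962 to 1369), 429 for Ms4a7 (316 to 568), 321 for Slc40a1 (225 to 445) and 330 for Mrc1 (233 to 455). Hmox1 was at 80.4 CPM (36.8 to 152) from 9 UMIs. No barcode was shared between the libraries.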

How the data were processed

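UMI counts per gene and cell, whole numbers, were taken as the authors deposited them, with 1 table per genotype. Cell Ranger 2.0.0 and mm10 were used per the submitters' processing notes, which also name Seurat 2.0 and DESeq2 1.14.1. Of 27998 gene identifiers, 27645 took a symbol from the reference gene table, and positions come from GENCODE on GRCm38. The other 353 held 0.0274% of control UMIs and stayed in the totals.

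Counts were summed over the cells of a population and scaled to CPM. Levels have exact Poisson intervals, ratios exact conditional intervals and shares exact binomial (Clopper-Pearson) intervals. Populations of 1 library have no replicates, so no test was run and a ratio of 1.5 is a limit of size. The calculation was tested on simulated data. Shares of cells with a gene, and single-cell values in UMIs per 5000, come from cells each thinned to 5000 UMIs, with some exceptions. The first shares given for Rgs1, the Csf1r statement and the sex of cells are at full depth. So are the Epcam counts and the UMI limits that chose the populations, and depth differed between the populations.

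The members, the gene lists and the comparisons were chosen with earlier results of these data known. In each direction, the genes named first were those with the largest log2 ratio with 10 CPM added, among genes with 50 or more UMIs in 10 or more cells of the higher population and a ratio of at least 1.5 (12 against the Lyve1-positive cells, 8 against the others), without predicted, sex-linked and mitochondrial genes. Others come from the lists. Some list genes are counted with their list and not reported here by name. Of 34 lists, 3 symbols were not matched (Sepp1, Clec7a, Spink3). Scrublet, through scanpy 1.11.5, marked 6 of 941 control barcodes as doublets (0.638%), 1 of them a member, and they were kept in the values given. TMM factors came from edgeR 4.0.16.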

Additional observations from a re-analysis of the deposited data

How the results depend on the processing

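Only 1 library was made per genotype, so leaving out a replicate and counting spread between animals were not possible, and every interval covers counting error alone. No paired analysis was possible because the numbered samples of a genotype are repeat runs in 1 table. Membership moved from 213 to 112 without any Lyve1 UMI, to 28 and 102 with only Xist or only Y cells, to 45 without cells of 3 or more mitosis UMIs and, as an alternative chosen after seeing the data, to 127 without cells of 8 or more. Limits of C1q at 4000 and 8000 CPM gave 268 and 155 members. Against the Lyve1-positive cells, the counts of genes higher and lower were 725 and 840 with a floor of 20 UMIs per gene, 192 and 209 with 100, 127 and 137 in Xist cells and 189 and 225 without cells of 3 or more mitosis UMIs. Fewer genes are tested with a higher floor or with fewer cells, and the numbers tested are not reported here. These counts and those that follow therefore do not show whether the share of genes changed. Against the Fcgr4-positive cells they were 1083 and 772 with the floor of 20, 270 and 269 with 100, 149 and 161 in Xist cells, 211 and 241 without the mitosis cells, and 1289 and 760 with Lyve1 and Fcgr4 judged at 5000 UMIs per cell, where the cause was not tested. The dividing share was 51.2% at 3000 UMIs, 90.1% without thinning and 31.0% with 8 UMIs. Of 333 log2 ratios of the 24 named genes against Lyve1-positive cells under 14 alternatives, 266 stayed within their own interval, 63 moved outside it and 4 changed sign: Meg3 (1.30) and Dcn (1.21) with the limits at 5000 UMIs, and Dcn in Xist cells (1.18) and without cells of 8 or more mitosis UMIs (0.42), the cause of which was not tested. Against all 3 populations, 4 of 776 changed sign. Lyve1 is among the 24 genes, and C1qa, C1qb, C1qc, Fcgr4 and Ly6c2 are among those of the other comparisons. The sign of these genes was set by how the populations were chosen. The other genes were picked for the largest ratios in the same data, so the few sign changes are no support for them. List medians moved by more than the spread of their genes in 7 of 319 cases. A change of sign was counted only where the main median was past 1.5-fold, and none was. That held for the Lyve1-type list alone. Among the moved medians, interferon turned from 0.41 to -0.16 and mitosis from -0.32 to 0.13, both in Xist cells. DNA replication turned from 0.02 to -0.38 with the limits at 5000 UMIs. It was -0.47 without cells of 8 or more mitosis UMIs, where mitosis was 0.05. TMM scaling moved no count by over 1.5 times.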

Other observations

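Further gene lists were compared with the Lyve1-positive cells. Over all 7068 measured genes, 5.08% were higher in the members and 5.91% lower, and the counts below are to be read beside these shares. Of 15 measured lipid handling genes, 4 were higher in the members (Apoc1, Abcg1, Fabp5, Lgals3) and Pltp was lower. Abcg1, a cholesterol exporter, was at 60.1 CPM against 26.0, found at 5000 UMIs per cell in 27.7% of members and 8.22% of Lyve1-positive cells. Lpl, lipoprotein lipase, was level at 151 CPM in both. Of 28 lysosome genes, 2 were higher, among them Ctss, and none was lower, with Ctsb at 3383 against 4246 CPM. In the Ms4a family, Ms4a4c was higher (95.2 against 35.3 CPM), while Ms4a6b, Ms4a6c and Ms4a6d lay between the limits.

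The iron list as a whole was close to level, with 3 of 20 measured genes higher (Spic, Fech, Slc11a1) and Cd163 lower, and a median log2 ratio of -0.07 against -0.05 over all genes. Hmox1 was at 734 CPM in the members and 974 in the Lyve1-positive cells, where 5 cells gave 31.4% of its UMIs. The highest single cell stood at 13570 CPM among the members and at 11560 CPM among the Lyve1-positive cells. Of 17 measured interferon genes, 4 were higher (Irf7, Oas1a, Ly6e, Xaf1) and Ifi27l2a was lower, and in cells carrying Xist the list's median log2 ratio was -0.16 in place of 0.41. Of 16 measured immediate early genes, Junb and Nr4a1 were higher.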
